A study of Arabidopsis thaliana with 8 samples.

Results

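RNA-seq was used to set seedlings of bin2-1, which carry a dominant gain-of-function allele of the kinase gene BIN2, against wild-type Col-0 seedlings. The comparison used the 3 bin2-1 and 3 Col-0 libraries of a series of 8, whose other 2 libraries came from a line that overexpresses MIR394A (MIR394A_OE). A gene was tested when it averaged 1 FPKM or more in these 6 libraries, which left 18761 of 22951 genes. FPKM is a fragment count corrected for transcript length and for the size of the library. The filter was sharp: the highest mean left out was 0.998 FPKM and the lowest kept was 1.00. Both genotypes are in the Col-0 ecotype and were harvested as whole seedlings aged 5 days. Seeds of both had been held at 4 °C for 4 days before growth at 22 °C with 16 h of light and 8 h of dark, and no treatment is given for either. The labels do not say whether the bin2-1 seedlings were homozygous, nor whether replicates came from separate sowings. The p-values therefore rest on the spread among these libraries, and that spread may be technical.

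Brassinosteroids are steroid hormones that promote cell elongation. Without hormone, BIN2 phosphorylates the transcription factors BZR1 and BES1 and keeps them inactive. When hormone binds the receptor BRI1, BIN2 is switched off, and BZR1 and BES1 repress genes of hormone synthesis and act on growth genes. The bin2-1 allele makes a kinase that hormone no longer switches off well, and the mutant is known as a brassinosteroid-insensitive dwarf.

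The allele changes the third residue of a 4-residue stretch, TREE in one-letter code, at positions 261 to 264 of the 380-residue protein. That residue is the glutamate at position 263. The wild-type coding sequence around it is shown because it is the lesion that sets the genotypes apart. It lies in an exon of BIN2 at chr4:10298374-10298403 on the plus strand in the RefSeq TAIR10.1 genome, with the 12 bases of the stretch in capitals.
BIN2: ggtacaccaACTCGAGAAGAAatccgttgt

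BIN2 (AT4G18710) itself had 91.8, 98.7 and 110.9 FPKM in bin2-1, against 94.1, 101.6 and 111.2 FPKM in Col-0. The groups overlapped fully, with a log2 difference of -0.03 (95% interval -0.46 to 0.41). A point mutation need not alter the transcript level, so this value checks no label. AT4G18720 overlaps BIN2 on the same strand, which makes the level of BIN2 uncertain.

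Depth was estimated from the steps between low FPKM values as 9.68 to 11.2 M reads in the 6 libraries. A count of 3 reads on 1 kb of transcript then equals 0.267 to 0.310 FPKM, a floor that covers counting error only. Libraries of 1 genotype were not equally alike. Col-0 replicates 1 and 3 correlated at r = 0.955 across genes and had 1333 genes more than 2-fold apart, and bin2-1 replicates 1 and 3 correlated at 0.961 with 967 such genes. On the first principal component, with 45.2% of the variance, bin2-1 lay at 34.5, 34.7 and 18.3 and Col-0 at -41.5, -32.6 and -13.5. On this component replicate 3 of each genotype thus lay nearest to the other genotype, and results that rest on these libraries are given with their values. By correlation, some pairs across genotypes were closer than the 2 pairs of 1 genotype above. Col-0 replicate 2 and bin2-1 replicate 3 correlated at 0.966, with 802 genes more than 2-fold apart. Col-0 replicate 3 and bin2-1 replicate 1 correlated at 0.962, with 936 such genes. Photosynthetic leaf markers (RBCS, LHCB and others, 7 genes) were abundant, with summed levels of 31730 to 43290 FPKM in bin2-1 against 39410 to 45120 FPKM in Col-0. Root markers were present in both genotypes (7 of 8 tested), and pollen markers were near 0, with sums of 0.10 to 0.21 FPKM in bin2-1 against 0.12 to 0.63 FPKM in Col-0. In whole seedlings, fewer cells of a type and less RNA per cell cannot be told apart.

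A small set of genes passed the test threshold, each more than 2-fold higher or lower in bin2-1. Among them were a gene of hormone synthesis, an auxin repressor, a pirin and a cell-surface proteoglycan. At an adjusted p of 0.05 in limma, 21 genes were called, 0.112% of those tested. Of these, 10 rose (0.0533%) and 11 fell (0.0586%), with adjusted p between 0.0237 and 0.0447. In all 21 the 3 bin2-1 libraries lay wholly above or below the 3 Col-0 libraries. The calls depended on which libraries entered the fit. A limma fit of the 6 libraries alone called 0 genes, with adjusted p of 0.0513 to 0.0717 for the 21 and 4220 genes at an unadjusted p under 0.05. The count was also 0 when bin2-1 replicate 1 or 2, Col-0 replicate 1 or 2, or either MIR394A_OE replicate was dropped, and 1788 to 4223 genes then had an unadjusted p below 0.05. Without Col-0 replicate 3 there were 180 calls and without bin2-1 replicate 3 there were 174, both including all 21.

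**Figure D1:**
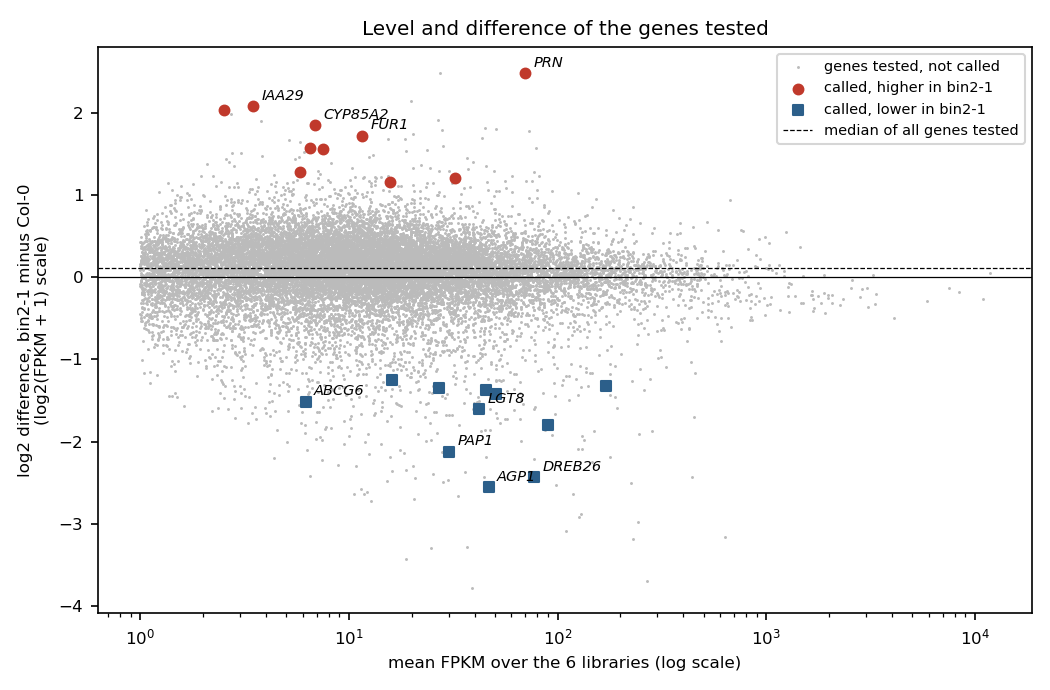
Each point is 1 of the genes tested, placed by its mean FPKM over the 6 libraries (log scale) and its log2 difference, bin2-1 minus Col-0, on the log2(FPKM + 1) scale. The 10 genes called higher (red circles) and 11 called lower (blue squares) lie 1.16 or further from 0 after rounding. Below them lie uncalled genes, among them ZAT7 at -3.77.

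CYP85A2 (AT3G30180), the cytochrome P450 that makes brassinolide, the most active brassinosteroid, had 12.96, 11.2 and 9.95 FPKM in bin2-1, against 3.08, 1.93 and 2.32 FPKM in Col-0. Every bin2-1 library was more than 3-fold above every Col-0 library, and the log2 difference was 1.85 (SE 0.19, limma adjusted p = 0.0237). IAA29 (AT4G32280), a member of the Aux/IAA repressors of auxin response, had 5.64, 6.73 and 6.24 FPKM in bin2-1, against 0.64, 0.42 and 1.11 FPKM in Col-0. It was near the read floor in Col-0 and well above it in all bin2-1 libraries (log2 difference 2.08, SE 0.21, adjusted p = 0.0237).

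PRN (AT3G59220), a pirin, a small nuclear protein of the cupin fold, had 149.7, 122 and 83.4 FPKM in bin2-1, against 14.7, 16.0 and 33.1 FPKM in Col-0. The groups were far apart, with replicate 3 nearest to the other genotype in each (log2 difference 2.48, SE 0.32, adjusted p = 0.0388). FUR1 (AT4G05120), the nucleoside transporter ENT3, had 18.9, 21.1 and 14.9 FPKM in bin2-1, against 5.10, 4.36 and 5.00 FPKM in Col-0. Its Col-0 libraries were close together and all below the lowest bin2-1 library (log2 difference 1.72, SE 0.20, adjusted p = 0.0364). AT1G13609, which encodes a defensin-like protein, had 3.94, 6.91 and 3.26 FPKM in bin2-1, against 0.51, 0.29 and 0.26 FPKM in Col-0. The 2 MIR394A_OE libraries, at 3.53 and 5.69 FPKM, were in the bin2-1 range for this gene. The other 5 that rose were AT1G47395, PP2-A8, a phloem protein of lectin type, AT1G65985, AT3G50900 and AT5G35940, a mannose-binding lectin, with log2 differences from 1.16 for AT5G35940 to 1.57 for AT1G47395.

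AGP1 (AT5G64310), an arabinogalactan protein of the cell surface, had 10.8, 11.2 and 13.9 FPKM in bin2-1, against 99.3, 106 and 39.4 FPKM in Col-0. Col-0 replicate 3 was the lowest wild-type library and still above all bin2-1 libraries (log2 difference -2.55, SE 0.33, adjusted p = 0.0388). DREB26 (AT1G21910), a transcription factor of the AP2/ERF family, had 19.1, 15.7 and 37.3 FPKM in bin2-1, against 143.9, 163 and 83.7 FPKM in Col-0, again with replicate 3 of each genotype nearest to the other. PAP1 (AT2G01180), a phosphatidate phosphatase, had 8.35, 8.70 and 14.5 FPKM in bin2-1, against 57.9, 61.5 and 30.2 FPKM in Col-0. The same order of libraries held for it (log2 difference -2.12, SE 0.29, adjusted p = 0.0447).

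ABCG6 (AT5G13580), a transporter of the ABCG type that acts in suberin formation, had 2.64, 2.02 and 3.69 FPKM in bin2-1, against 10.5, 8.47 and 9.97 FPKM in Col-0. Its Col-0 libraries agreed closely, and the groups were far apart. AT3G22620, a protein of the lipid-transfer superfamily, had 24.2, 23.3 and 27.4 FPKM in bin2-1, against 69.6, 61.3 and 67.6 FPKM in Col-0, the tightest pair of groups among the genes that fell (log2 difference -1.37, SE 0.14, adjusted p = 0.0237). ADT4, an arogenate dehydratase that makes phenylalanine, had 14.1, 13 and 17.5 FPKM in bin2-1, against 40.7, 44.8 and 32.7 FPKM in Col-0. The other 5 that fell were the gene with NCBI number 824912, which the gene table used here does not name, LGT8, a galacturonosyltransferase-like protein, AT1G28600, a GDSL-type lipase, and the cytochromes P450 CYP706A1 and CYP81D11. Their log2 differences ran from -1.79 for the first to -1.25 for CYP81D11. AT3G22620 and CYP81D11 overlap neighbours on the opposite strand by 51 and 32 bases, and the use of strand is not given in the sources used here.

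**Figure D2:**
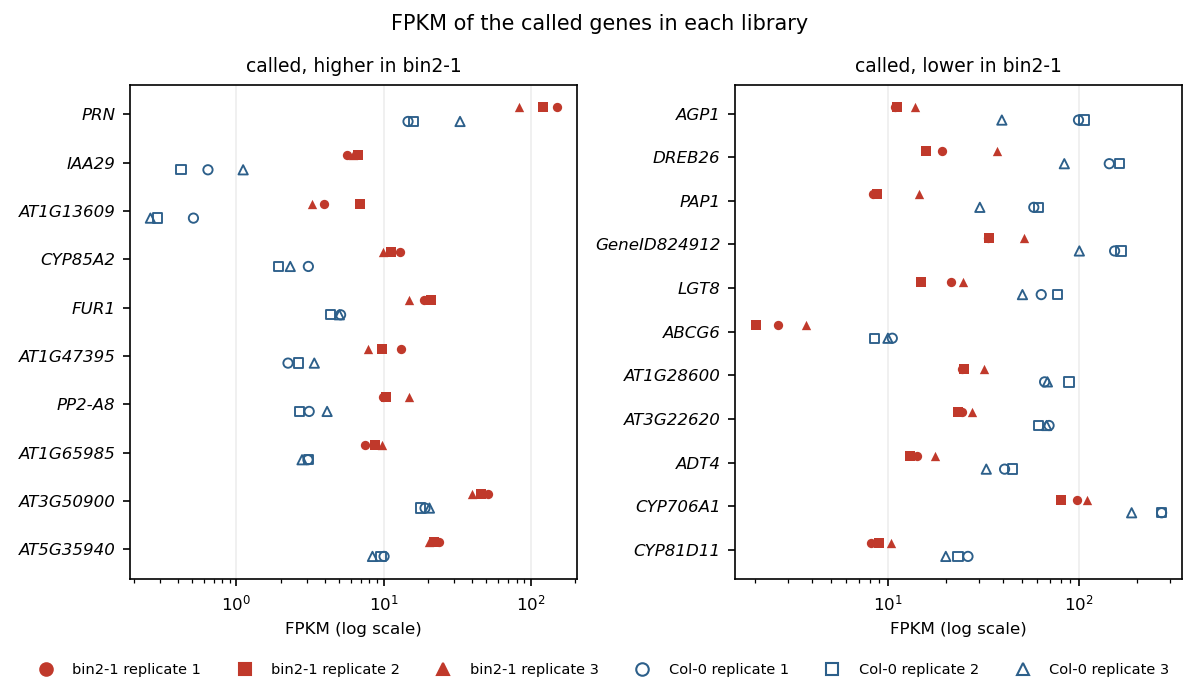
FPKM (log scale) of each called gene in the 3 bin2-1 libraries (filled red) and the 3 Col-0 libraries (open blue), with marker shape giving the replicate, for genes higher in bin2-1 on the left and lower on the right. No called gene has overlapping groups, and for AGP1, DREB26 and PAP1 the triangles of replicate 3 are nearest to the other genotype.

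Since few genes passed, gene groups were also described by counting members whose 3 bin2-1 libraries all lay above, or all below, the 3 Col-0 libraries. This is a description, since 3 against 3 cannot give an exact two-sided p below 0.10. Over all genes tested, 3808 (20.3%) were higher in this sense and 1583 (8.44%) lower, and the median log2 difference was 0.11. Rescaling by the median of ratios moved that median to 0.01 and gave 2320 higher (12.4%) and 2483 lower (13.2%), so the lean toward higher genes depends on the scaling. At 2-fold or more without overlap the balance was the other way under both scalings. There were 131 higher (0.698%) and 328 lower (1.75%) as deposited, 2.45% in all, and 80 higher (0.426%) and 434 lower (2.31%) after rescaling. By sign alone, 11916 of the genes tested had positive and 6844 had negative differences as deposited. Among genes with a mean above 100 FPKM, 1 was 2-fold higher and 42 were 2-fold lower. Of the 328 genes 2-fold lower, bin2-1 replicate 3 was the highest bin2-1 library in 76.2%, against 38.8% of all genes, and Col-0 replicate 3 was the lowest Col-0 library in 77.4%, against 44.2% of all genes.

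Of 9 genes of brassinosteroid synthesis tested, CYP85A2 was the 1 called. Together with DWF4 and CYP90D1 it made 3 higher without overlap, with none lower, against 20.3% and 8.44% of all genes. After rescaling the counts were 3 and 1. The list median was 0.40, or 0.22 without Col-0 replicate 2. DWF4 (AT3G50660), the hydroxylase of carbon 22 and a known point of feedback, had 13.5, 15.1 and 14.5 FPKM in bin2-1, against 6.02, 5.65 and 5.69 FPKM in Col-0. Both groups were tight and more than 2-fold apart, and the gene narrowly missed the threshold (log2 difference 1.18, 95% interval 0.77 to 1.59, adjusted p = 0.0555). CYP90D1 (AT3G13730), a hydroxylase of carbon 23, had 6.30, 8.14 and 7.61 FPKM in bin2-1, against 4.44, 2.17 and 2.81 FPKM in Col-0. Its groups did not overlap (log2 difference 1.04, 95% interval 0.55 to 1.54). ROT3, a close relative of CYP90D1, had 7.55, 9.88 and 8.98 FPKM in bin2-1, against 7.58, 3.93 and 4.83 FPKM in Col-0. CPD had 55.0, 53.6 and 38.1 FPKM in bin2-1, against 41.9, 28.0 and 40.8 FPKM in Col-0. For ROT3 and CPD the groups overlapped, ROT3 by a single wild-type library. Of the early steps, DET2, the steroid reductase, had 10.1, 11.98 and 9.94 FPKM in bin2-1, against 9.62, 9.49 and 12.2 FPKM in Col-0. DWF1, DWF5 and STE1 also overlapped, with log2 differences of -0.09, -0.04 and -0.08.

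The 250 bases before the transcript start of the 3 synthesis genes whose groups did not overlap are shown, since BZR1 is known to bind promoters of this pathway. They are from RefSeq TAIR10.1, on the strand of the gene, with the E-box CANNTG in capitals where present: CYP85A2 at chr3:11810476-11810725 on the plus strand, DWF4 at chr3:18817406-18817655 and CYP90D1 at chr3:4500921-4501170, both on the minus strand.
CYP85A2: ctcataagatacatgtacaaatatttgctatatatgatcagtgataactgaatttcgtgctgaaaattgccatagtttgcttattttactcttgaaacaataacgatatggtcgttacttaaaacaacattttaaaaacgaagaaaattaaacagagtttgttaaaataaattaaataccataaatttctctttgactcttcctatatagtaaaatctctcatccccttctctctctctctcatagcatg
DWF4: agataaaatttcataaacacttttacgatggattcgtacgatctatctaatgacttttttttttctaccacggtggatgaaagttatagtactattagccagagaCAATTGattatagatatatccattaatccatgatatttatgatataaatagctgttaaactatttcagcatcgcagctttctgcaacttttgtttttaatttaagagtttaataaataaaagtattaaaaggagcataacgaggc
CYP90D1: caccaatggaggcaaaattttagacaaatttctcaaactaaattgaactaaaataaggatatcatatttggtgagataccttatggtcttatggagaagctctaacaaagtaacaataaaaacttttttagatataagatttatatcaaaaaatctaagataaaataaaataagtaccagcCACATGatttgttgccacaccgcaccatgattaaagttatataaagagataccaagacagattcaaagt
The elements CGTGTG and CGTGCG, known as binding motifs of BZR1, and the G-box CACGTG, which is a form of E-box, were searched on both strands. None of the 3 was found in these windows, while 5.37%, 1.57% and 6.49% of 27443 promoters of the same length hold them. DWF4 holds 1 E-box starting at -145 and CYP90D1 1 at -69, and 55.3% of all promoters hold at least 1. The absence of these letters says nothing of sites outside the windows.

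Genes that inactivate brassinosteroids were lower in 5 of 6 members, with 0 called. Of the 6, 2 were lower without overlap, against 8.44% of all genes. The median was -0.25, or -0.38 without bin2-1 replicate 3 and -0.11 without bin2-1 replicate 1. UGT73C5 (AT2G36800), a glucosyltransferase that inactivates the hormone, had 7.72, 7.45 and 7.70 FPKM in bin2-1, against 36.6, 15.8 and 9.16 FPKM in Col-0. Its near copy UGT73C6 had 1.42, 0.93 and 1.57 FPKM in bin2-1, against 12.01, 5.02 and 4.10 FPKM in Col-0. In both genes bin2-1 was even and Col-0 spread widely, with replicate 1 highest, and reads may be shared between the copies. BAS1, the hydroxylase of carbon 26, had 2.04, 3.14 and 2.89 FPKM in bin2-1, against 3.55, 2.93 and 3.37 FPKM in Col-0. BIA1, an acyltransferase, was the one member with a positive difference (0.78, 95% interval 0.12 to 1.45), and its groups overlapped.

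The signalling genes between receptor and transcription factor showed little difference. Of 18 tested, 4 were higher and 1 lower without overlap, the higher ones a share near the 20.3% of all genes. Of all genes, 8.44% were lower. After rescaling the counts were 1 and 2, against 12.4% and 13.2%. Among the 18, 0 were called, and all log2 differences lay between -0.46 for BES1 and 0.48 for BRL1. BES1 (AT1G19350), a transcription factor that BIN2 phosphorylates, had 70.1, 54.7 and 60.0 FPKM in bin2-1, against 95.2, 83.0 and 76.0 FPKM in Col-0. BZR1, its close relative, had 19.2, 21.2 and 21.2 FPKM in bin2-1, against 19.8, 22.7 and 23.4 FPKM in Col-0. BES1 was thus lower in all bin2-1 libraries and BZR1 was not, though BES1 overlaps a gene on the opposite strand by 818 bases. BRI1, the receptor, had 41.1, 48.5 and 54.0 FPKM in bin2-1, against 46.3, 63.8 and 51.7 FPKM in Col-0, with overlapping groups. BRL1, a BRI1-like receptor of vascular tissue, had 2.3, 2.33 and 2.46 FPKM in bin2-1, against 1.25, 1.38 and 1.61 FPKM in Col-0. The BIN2 relatives BIL1 and BIL2 had log2 differences of 0.00 and 0.21.

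**Figure D3:**
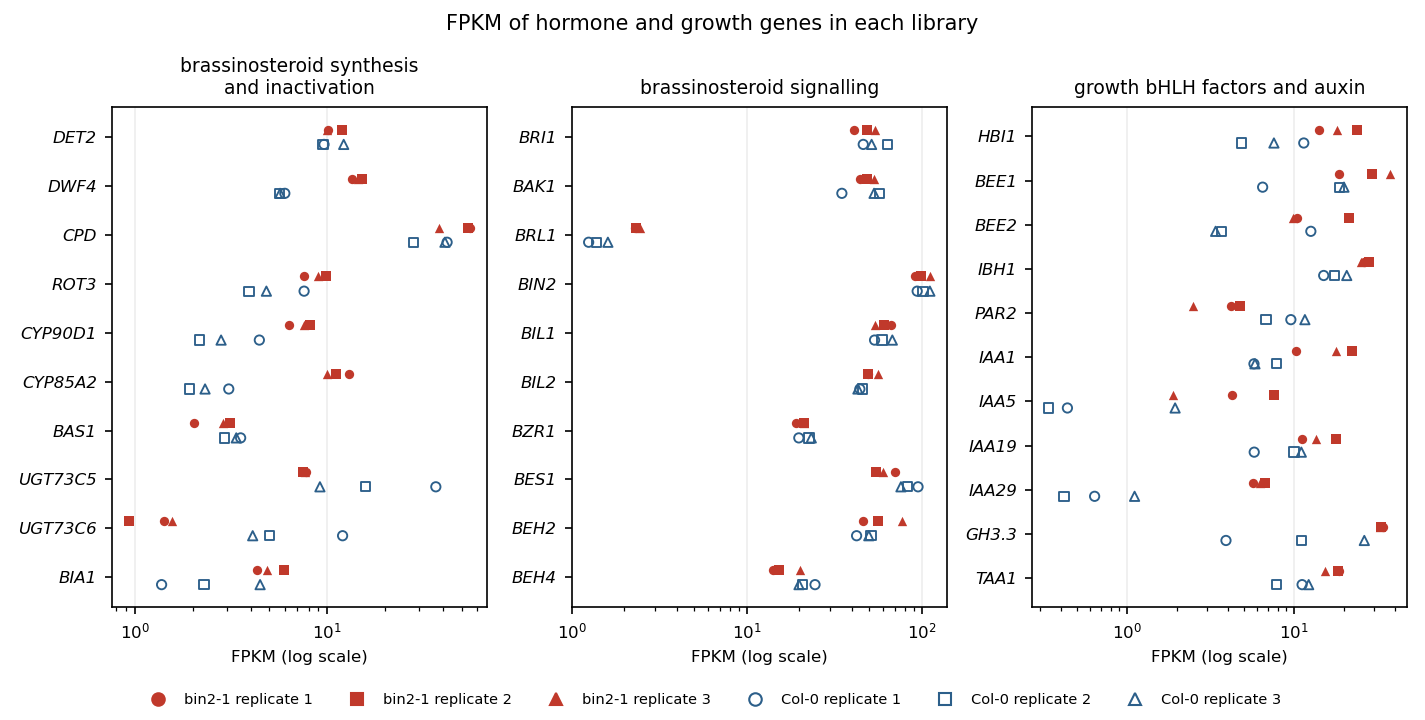
FPKM (log scale) of brassinosteroid synthesis and inactivation genes (left), signalling genes (middle) and growth bHLH and auxin genes (right) in the 3 bin2-1 (filled red) and 3 Col-0 libraries (open blue). CYP85A2, DWF4 and IAA29 have separate groups, while BRI1, BAK1, BIN2 and BZR1 overlap.

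Growth regulators of the bHLH family had positive differences in 9 of 11 tested, with a median of 0.45. Without overlap 2 were higher and 2 lower, against 20.3% and 8.44% of all genes, and 0 were called. The 11 summed to 138.3 to 166.2 FPKM in bin2-1, against 104.2 to 119.9 FPKM in Col-0. HBI1 (AT2G18300), an activator of elongation, had 14.0, 23.7 and 18.0 FPKM in bin2-1, against 11.4, 4.85 and 7.57 FPKM in Col-0. IBH1, an inhibitor of HBI1, had 26.2, 28.0 and 25.1 FPKM in bin2-1, against a range of 15.03 to 20.7 FPKM in the 3 Col-0 libraries. Activator and inhibitor were therefore both higher in all bin2-1 libraries, with adjusted p of 0.108 and 0.135. PAR2, which represses shade responses, had 4.20, 4.75 and 2.48 FPKM in bin2-1, against 9.56, 6.80 and 11.6 FPKM in Col-0. Of 16 light and shade factors tested, 4 were higher and 0 lower without overlap, against 20.3% and 8.44% of all genes. After rescaling the counts were 2 and 1, and 0 were called. Among them PIF3 and PIF7, bHLH factors that phytochrome controls, had log2 differences of 0.82 and 1.04. PIF4 had 17.3, 16.2 and 18.6 FPKM in bin2-1, against 36.1, 18.5 and 20.7 FPKM in Col-0, so that these relatives did not share a direction.

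The auxin lists differed from one another. Of 22 Aux/IAA repressors, 7 were higher and 1 lower without overlap, against 20.3% and 8.44% of all genes. After rescaling the counts were 4 and 2, against 12.4% and 13.2%. IAA29 was the 1 called. IAA7 (138.8, 162 and 166.6 FPKM in bin2-1, against 118, 101 and 99.6 FPKM in Col-0) is an abundant member. IAA1 had 10.3, 22.3 and 17.7 FPKM in bin2-1, against 5.75, 7.81 and 5.83 FPKM in Col-0. IAA17 was the member lower in all libraries, with 39.4, 45.2 and 45.2 FPKM in bin2-1, against 61.0, 54.0 and 59.4 FPKM in Col-0. Repressors of this family thus lay on both sides, with a median of 0.34.

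Of 12 genes of auxin synthesis and conjugation, 6 were higher and 0 lower without overlap, against 20.3% and 8.44% of all genes. After rescaling the counts were 4 and 1, against 12.4% and 13.2%, and 0 were called. TAA1, the aminotransferase that begins auxin synthesis, had 18.7, 18.3 and 15.3 FPKM in bin2-1, against 11.2, 7.87 and 12.2 FPKM in Col-0. GH3.3, an auxin-conjugating enzyme, had 34.1, 33.1 and 32.7 FPKM in bin2-1, against 3.91, 11.1 and 26.3 FPKM in Col-0. The wild-type libraries spread several-fold for GH3.3, while bin2-1 was even. YUC5, a flavin monooxygenase of auxin synthesis, went the other way (log2 difference -0.90, 95% interval -1.46 to -0.34), with bin2-1 replicate 3 inside the Col-0 range.

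SAUR genes, small auxin-induced genes, counted 10 higher and 4 lower without overlap among 51 tested. The share of higher ones was near the 20.3% of all genes. After rescaling the counts were 9 and 4, against 12.4% and 13.2%. At 2-fold or more without overlap, 6 were higher and 1 was lower, against 0.698% and 1.75% of all genes. SAUR45 had 5.04, 3.74 and 3.78 FPKM in bin2-1, against 0.36, 1.09 and 1.45 FPKM in Col-0. SAUR48 had 0.72, 0.88 and 1.21 FPKM in bin2-1, against 14.0, 9.18 and 1.24 FPKM in Col-0, a gap that replicate 3 of Col-0 nearly closes. AT5G02760, a phosphatase of PP2C clade D, whose members switch off plasma membrane proton pumps and are known to be inhibited by SAUR proteins, had 92.7, 83.9 and 163 FPKM in bin2-1, against 15.1, 39.5 and 76.7 FPKM in Col-0. It was higher in every bin2-1 library without being called (log2 difference 1.56, adjusted p = 0.228), and it overlaps neighbours on the opposite strand. Auxin transport genes counted 2 higher and 3 lower without overlap of 17, against 20.3% and 8.44% of all genes. After rescaling the counts were 1 and 3, 0 were called, and the median was 0.22. The carrier PIN2 was higher in all libraries (log2 difference 0.49), and the carriers PIN5 and LAX1 were lower in all (-0.77 and -0.30). The list of pumps and clade D phosphatases counted 7 higher and 1 lower of 17, against 20.3% and 8.44% of all genes. After rescaling the counts were 3 and 3, against 12.4% and 13.2%.

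The most uneven lists were on the lower side. Arabinogalactan proteins, heavily glycosylated proteins of the wall and membrane surface, were lower in 25 of 26 members tested, out of 41 on the list. Without overlap 15 were lower and 0 higher, against 8.44% and 20.3% of all genes, and AGP1 was the 1 called. The list median was -0.76, and between -0.77 and -0.66 with any 1 bin2-1 or Col-0 library left out. AGP16 had 37.7, 33.3 and 37.6 FPKM in bin2-1, against 76.7, 80.0 and 89.1 FPKM in Col-0. AGP20, its close relative, had 13.9, 10.3 and 13.8 FPKM in bin2-1, against 25.0, 31.9 and 27.3 FPKM in Col-0. Both had tight groups about 2-fold apart and missed the threshold narrowly (limma adjusted p = 0.0618 and 0.0555). AGP15, the most abundant in Col-0, had 168.6, 175 and 295 FPKM in bin2-1, against 339, 511 and 488 FPKM in Col-0. AGP12 was the one member not lower, at a log2 difference of 0.01. AGP18 had 130.9, 150.1 and 328 FPKM in bin2-1, against 92.6, 274 and 498 FPKM in Col-0, a spread within each genotype larger than the difference between them.

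Suberin genes, which build the lipid barrier of endodermis and periderm, were lower in 11 of 12 members. Of the 12, 10 were lower without overlap, against 8.44% of all genes. The list median was -0.80, and between -0.93 and -0.63 with any 1 bin2-1 or Col-0 library left out. CYP86B1 (AT5G23190), a fatty acid hydroxylase, had 2.98, 2.22 and 3.79 FPKM in bin2-1, against 8.22, 7.34 and 7.05 FPKM in Col-0. GPAT5, an acyltransferase of the same pathway, had 1.89, 1.76 and 2.46 FPKM in bin2-1, against 5.05, 4.93 and 4.51 FPKM in Col-0. CYP86A1, another hydroxylase, had 8.99, 10.2 and 14.97 FPKM in bin2-1, against 23.3, 21.2 and 30.2 FPKM in Col-0. These 3 had even wild-type libraries well above the bin2-1 level, with adjusted p of 0.0618, 0.0669 and 0.0781, and ABCG6 of this list was called. FAR1, a fatty alcohol reductase, was the one member higher, with 20.6, 31.4 and 36.3 FPKM in bin2-1, against 12.03, 13.2 and 8.04 FPKM in Col-0, but it overlaps a gene on the opposite strand by 1310 bases. Root markers as a group had a median of 0.15 over 7 tested, near the 0.11 of all genes, and their summed levels overlapped. Whether the amount of endodermis or periderm differed was not tested. Of 22 wax and cutin genes, which serve the shoot cuticle, 14 had negative differences, with a median of -0.07. Without overlap 3 were lower and 1 was higher, against 8.44% and 20.3% of all genes, or 6 and 1 after rescaling.

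Aquaporins, channels for water in plasma membrane and vacuole, were lower in all 19 members tested, with 0 called. Of the 19, 12 were lower without overlap, against 8.44% of all genes. Their median was -0.44, and between -0.53 and -0.39 with any 1 bin2-1 or Col-0 library left out. PIP2;1 had 174, 175 and 170.9 FPKM in bin2-1, against 321, 271 and 326 FPKM in Col-0. TIP2;1 had 136.8, 104.8 and 74.9 FPKM in bin2-1, against 175, 166 and 169.8 FPKM in Col-0. PIP1;2 had 217, 209 and 194 FPKM in bin2-1, against 359, 337 and 307 FPKM in Col-0. Library order here differed from that of AGP1: bin2-1 replicate 3 was the lowest of its group for TIP2;1 and PIP1;2. Expansins, which loosen walls, counted 1 higher and 2 lower without overlap of 19, and genes of primary wall cellulose synthesis 0 and 0 of 9. Both stand against 20.3% higher and 8.44% lower over all genes.

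XTH genes, which cut and rejoin wall xyloglucan, were lower in 20 of 28 members. Without overlap 5 were lower and 1 was higher, against 8.44% and 20.3% of all genes. After rescaling the counts were 7 and 1, against 13.2% and 12.4%. TCH4 (XTH22, AT5G57560), a touch-induced gene, had 54.1, 81.5 and 366 FPKM in bin2-1, against 913, 1618 and 789 FPKM in Col-0. Its log2 difference was -3.15 (95% interval -4.53 to -1.78, adjusted p = 0.0781). XTH30 had 8.88, 10.3 and 20.8 FPKM in bin2-1, against 25.9, 39.5 and 22.7 FPKM in Col-0. In both genes bin2-1 replicate 3 was far above the other bin2-1 libraries, for XTH30 close to the lowest Col-0 library.

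Genes known to respond within minutes to touch, wounding and handling were lower in all 11 members tested, with 0 called. Of the 11, 7 were lower without overlap, against 8.44% of all genes. The median was -1.72, the lowest of the 38 lists, and it lay between -2.51 without Col-0 replicate 3 and -1.08 without Col-0 replicate 1. Summed over the list, bin2-1 had 1227, 1683 and 3050 FPKM, against 4187, 5238 and 2818 FPKM in Col-0, so that the sums overlapped. SZF1, a zinc finger protein, had 17.1, 20.01 and 36.0 FPKM in bin2-1, against 427, 222 and 56.6 FPKM in Col-0. ZAT10, another zinc finger protein, had 14.5, 28.7 and 22.3 FPKM in bin2-1, against 224, 69.6 and 41.8 FPKM in Col-0. WRKY33, a WRKY factor, had 16.7, 24.5 and 47.2 FPKM in bin2-1, against 337, 105 and 31.6 FPKM in Col-0, with overlapping groups. Col-0 replicate 1 was the highest Col-0 library in 9 of 11 members and replicate 3 the lowest in 10 of 11. The wild-type libraries spread about as far as the genotypes differed, and whether handling at harvest differed was not tested.

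Ethylene response factors of the same rapid kind were also lower. Of 18 ethylene and DREB genes, 9 were lower and 2 higher without overlap, against 8.44% and 20.3% of all genes. DREB26 was the 1 called. The median was -0.70, or -1.12 without bin2-1 replicate 3 and -0.40 without bin2-1 replicate 2. ERF6 had 16.9, 25.2 and 26.4 FPKM in bin2-1, against 326, 141.5 and 52.1 FPKM in Col-0. ERF11, a repressor of ethylene synthesis, had 2.68, 3.57 and 11.96 FPKM in bin2-1, against 49.9, 41.2 and 15.2 FPKM in Col-0. ERF4 had 15.8, 17.9 and 27.3 FPKM in bin2-1, against 75.1, 52.0 and 40.2 FPKM in Col-0. For each of these Col-0 replicate 3 was the lowest wild-type library and Col-0 replicate 1 the highest. The receptor ETR1 and the factor EIN3 overlapped between groups, with log2 differences of 0.11 and 0.18. ACO1, an enzyme of the last step of ethylene synthesis, was higher in all libraries, with 13.2, 18.0 and 19.0 FPKM in bin2-1, against 7.92, 9.57 and 9.76 FPKM in Col-0.

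Salicylic acid immunity genes had negative differences in all 12 members, but 0 were called. Only 2 were lower without overlap, against 8.44% of all genes. WRKY70, a factor of this pathway, had 2.08, 1.96 and 14.3 FPKM in bin2-1, against 44.7, 40.7 and 19.1 FPKM in Col-0. PAD4, a lipase-like regulator, had 6.90, 9.36 and 13.4 FPKM in bin2-1, against 21.1, 30.4 and 16.5 FPKM in Col-0. PR1, the pathogenesis-related marker gene, was listed at 0, 0.12 and 14.9 FPKM in bin2-1 and at 0, 36.0 and 6.70 FPKM in Col-0, so single libraries of both genotypes stood out. The highest bin2-1 library was replicate 3 in 11 of 12 members. The list median was -1.06, or -1.34 without bin2-1 replicate 3 and -0.55 without Col-0 replicate 2.

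**Figure D4:**
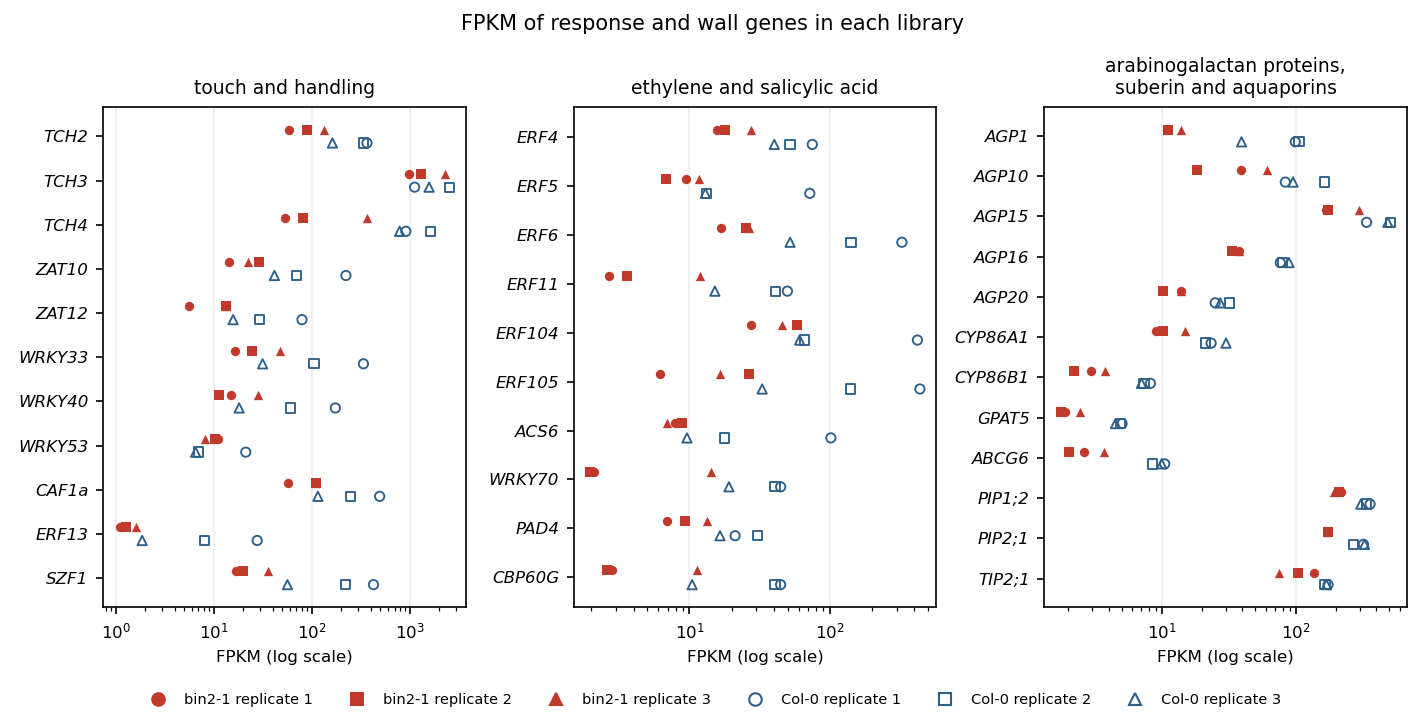
FPKM (log scale) of touch and handling genes (left), ethylene and salicylic acid genes (middle) and wall and membrane genes (right) in the 3 bin2-1 (filled red) and 3 Col-0 libraries (open blue). For SZF1, ZAT10, ERF6 and ERF11 in the left and middle panels, replicate 3 (open triangles) is the Col-0 point nearest to bin2-1. For TCH4 it stays far from bin2-1 replicates 1 and 2, at 789 FPKM against 54.1 and 81.5 FPKM. AGP16, CYP86B1, GPAT5 and ABCG6 have compact, separate groups.

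The genes with the largest differences that were not called followed the same pattern on the lower side. ZAT7 (AT3G46090), a zinc finger gene, had 1.35, 1.47 and 11.7 FPKM in bin2-1, against 110.8, 90.08 and 17.37 FPKM in Col-0 (log2 difference -3.77, adjusted p = 0.0906). PHI-1 (AT1G35140), an EXORDIUM-like gene, had 14.96, 22.2 and 109.9 FPKM in bin2-1, against 329.9, 799.5 and 337 FPKM in Col-0. DIC2, a mitochondrial dicarboxylate carrier, had 21.5, 43.3 and 61.5 FPKM in bin2-1, against 636, 457 and 157 FPKM in Col-0. In all 3 the highest bin2-1 library was replicate 3. On the higher side, WRKY29 (AT4G23550) had 63.3, 73.5 and 72.4 FPKM in bin2-1, against 12.01, 23.7 and 24.4 FPKM in Col-0, an even difference close to the threshold (1.81, SE 0.27, adjusted p = 0.0512). It overlaps a gene on the opposite strand by 251 bases. RD29A (AT5G52310), a gene of cold, drought and abscisic acid response, had 84.0, 80.0 and 70.1 FPKM in bin2-1, against 14.1, 20.6 and 34.8 FPKM in Col-0. The rest of the cold list did not follow: of 11 tested, RD29A was the 1 without overlap and the median was 0.03. BRG2, a RING-type gene, had 39.9, 58.3 and 29.1 FPKM in bin2-1, against 6.24, 9.88 and 16.7 FPKM in Col-0.

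Flavonoid and anthocyanin genes were lower without overlap in 9 of 13 members, against 8.44% of all genes, with 0 higher and 0 called. The 13 summed to 306.5 to 311 FPKM in bin2-1, against 447 to 466 FPKM in Col-0. CHS, the first enzyme, had 139.2, 147.4 and 152 FPKM in bin2-1, against 197, 228 and 241 FPKM in Col-0. LDOX, a late enzyme of the anthocyanin branch, had 0.66, 1.45 and 1.69 FPKM in bin2-1, against 8.54, 4.56 and 4.44 FPKM in Col-0. Both were lower in every bin2-1 library, LDOX from a low level. The activators MYB12 and MYB111 were not lower, with log2 differences of 0.09 and 0.44 and overlapping groups.

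Nuclear photosynthesis genes had negative differences in 41 of 44 members, with 0 called. Without overlap 13 were lower and 0 higher, against 8.44% and 20.3% of all genes. After rescaling the counts were 23 and 0, against 13.2% and 12.4%. The size was small, with a median of -0.27. Of the 7 leaf markers, which include genes of this list, 4 were also lower without overlap, and their part in the result was not tested. LHCB2.1, an antenna protein gene, had 511, 427 and 401 FPKM in bin2-1, against 915, 627 and 776 FPKM in Col-0. LHCB2.2 and LHCB2.3, near copies among which reads may be shared, had log2 differences of -0.66 and -0.89. RBCS3B, a small subunit of Rubisco, had 10231, 10398 and 9000 FPKM in bin2-1, against 11618, 11634 and 12333 FPKM in Col-0. In chlorophyll synthesis, 5 of 15 were lower without overlap, against 8.44% of all genes. Among the 5 were HEMA1 and HEMA2, of the first steps, and GUN4. GUN4 overlaps a gene on the opposite strand by 946 bases, and LHCB2.3 overlaps another by 595. FPKM are shares of a library, and high-level genes as a class had a median near 0.02, against 0.15 for genes of 3 to 10 FPKM.

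Iron deficiency genes lay on the higher side, with a median of 0.52 and AT1G47395 the 1 called. Without overlap 5 of 15 were higher and 0 lower, against 20.3% and 8.44% of all genes. After rescaling the counts were 4 and 0, against 12.4% and 13.2%. AT1G47395 had 13.1, 9.77 and 7.80 FPKM in bin2-1, against 2.24, 2.64 and 3.38 FPKM in Col-0, and the MIR394A_OE libraries had 10.7 and 8.03 FPKM. Its neighbour AT1G47400 had 8.55, 5.95 and 3.84 FPKM in bin2-1, against 0.86, 1.37 and 2.44 FPKM in Col-0. FRU, the master bHLH factor of iron uptake, had 6.21, 8.48 and 9.37 FPKM in bin2-1, against 2.75, 4.62 and 5.72 FPKM in Col-0. IRT1, the root iron transporter that it controls, had 5.13, 2.52 and 2.84 FPKM in bin2-1, against 7.60, 2.52 and 8.33 FPKM in Col-0. The groups overlapped for IRT1 and not for FRU, AT1G47395 or AT1G47400.

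Stomatal lineage genes counted 4 higher and 0 lower without overlap of 14, against 20.3% and 8.44% of all genes, or 4 and 1 after rescaling, with 0 called. BASL, a polarity protein of the lineage, had 3.12, 2.98 and 2.37 FPKM in bin2-1, against 0.96, 0.64 and 0.65 FPKM in Col-0 (log2 difference 1.13, SE 0.17, limma adjusted p = 0.0555). SPCH, the bHLH factor that starts the lineage and a known target of BIN2, had 13.5, 14.9 and 9.84 FPKM in bin2-1, against 7.64, 6.38 and 7.66 FPKM in Col-0. EPF2, a secreted peptide of early lineage cells, had 19.6, 14.9 and 9.49 FPKM in bin2-1, against 6.39, 5.73 and 8.17 FPKM in Col-0. All 3 were higher in every bin2-1 library, with replicate 3 the lowest. Among 15 root hair genes 3 were higher and 1 was lower without overlap, or 2 and 2 after rescaling. The share of higher ones was near the 20.3% of all genes. RSL4, the bHLH factor of hair growth, had 2.88, 5.49 and 4.75 FPKM in bin2-1, against 1.28, 2.1 and 1.94 FPKM in Col-0.

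Secondary wall genes, which build the thick walls of xylem, had negative differences in 12 of 15 members. Without overlap 4 were lower and 1 higher, against 8.44% and 20.3% of all genes, and 0 were called. After rescaling the counts were 8 and 1, against 13.2% and 12.4%. The sizes were small, with a median of -0.14, and the list summed to 167, 180.4 and 188 FPKM in bin2-1, against 203, 198 and 203 FPKM in Col-0. IRX15-L had 5.19, 6.30 and 5.34 FPKM in bin2-1, against 7.68, 8.26 and 8.19 FPKM in Col-0 (log2 difference -0.46, limma adjusted p = 0.334). The 5 xylem markers, all of them also in this list, summed to 114 to 131 FPKM in bin2-1, against 135 to 142 FPKM in Col-0, and their part in the result was not tested.

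In the other lists 0 genes were called. Their counts without overlap stand against 20.3% higher and 8.44% lower over all genes, or 12.4% and 13.2% after rescaling. ARR8, a cytokinin response regulator, had 8.11, 11.2 and 11.5 FPKM in bin2-1, against 5.01, 3.00 and 3.64 FPKM in Col-0. In its family 2 of 10 were higher and 0 lower without overlap, a share of higher ones near the 20.3% of all genes. KRP2, a cell cycle inhibitor, had 9.31, 10.6 and 9.68 FPKM in bin2-1, against 6.55, 2.74 and 5.33 FPKM in Col-0, while the cell cycle list had a median of 0.05 over 19. Gibberellin genes (17, median 0.07), jasmonate genes (22, median 0.10), glucosinolate genes (20, median -0.04) and beta-tubulins (9, median 0.13) lay around the all-gene median. The balance turned with the scaling in 2 of them: gibberellin genes counted 4 higher and 1 lower as deposited and 1 and 2 after rescaling, and jasmonate genes had the same counts. Abscisic acid genes counted 1 higher and 2 lower of 16, heat shock genes 3 and 1 of 11, and genes of dark and sugar starvation 1 and 2 of 14. Clock genes counted 2 higher and 0 lower of 15 as deposited, and 1 and 3 after rescaling. CCA1, a morning clock gene, had 9.95, 10.6 and 12.2 FPKM in bin2-1, against 20.1, 14.6 and 9.36 FPKM in Col-0, and TOC1, an evening gene, had 44.6, 53.9 and 58.9 FPKM in bin2-1, against 60.3, 70.3 and 55.3 FPKM in Col-0. Both overlapped, with the wild-type libraries of CCA1 spread more than 2-fold.

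**Figure D5:**
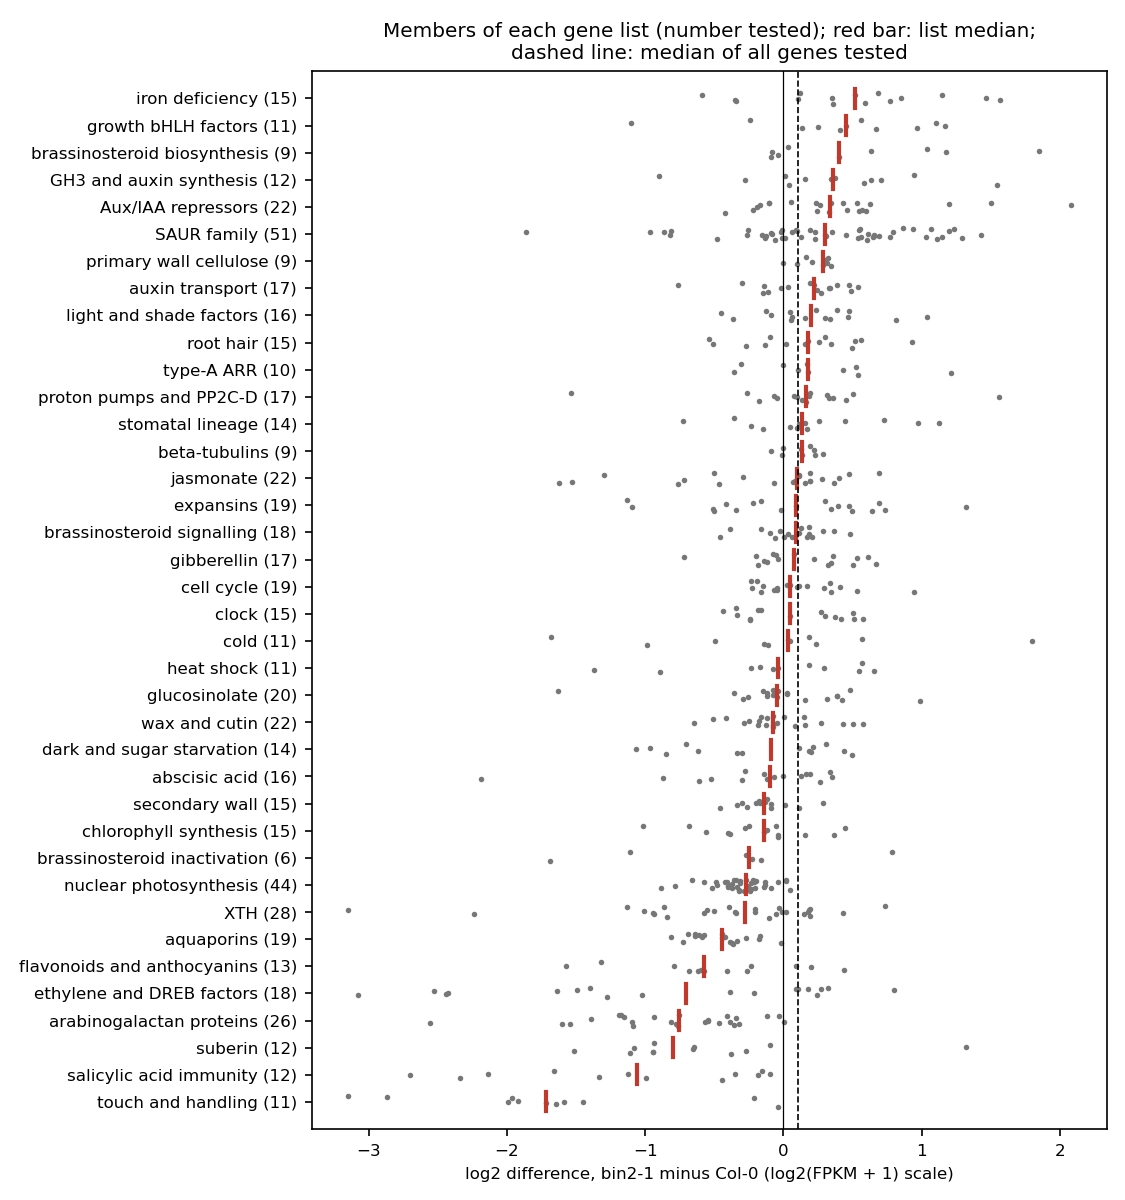
Log2 difference, bin2-1 minus Col-0, of every tested member of the 38 gene lists (points), with the list median as a red bar, the number tested in brackets and the median of all genes as a dashed line at 0.11. Touch and handling (-1.72), salicylic acid immunity (-1.06), suberin (-0.80) and arabinogalactan proteins (-0.76) lie lowest, and iron deficiency (0.52) and growth bHLH factors (0.45) highest.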

How the data were processed

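The authors deposited 1 table of FPKM values per gene and library, with 2 decimals, per the file headers and the labels. Libraries were made from total RNA with a TruSeq RNA kit. Per the submitters' processing notes, Bowtie2 and HISAT were used, with no version or step named. Which build, which FPKM program and which strand setting were used is not given in the sources used here. Of 22951 gene numbers, 22798 matched the RefSeq TAIR10.1 gene table and 153 did not. FPKM are not counts, so limma 3.58.1 in R 4.3.3 was used on log2(FPKM + 1), with genes of at least 1 FPKM on average over the 6 libraries. The pseudocount of 1 understates the differences of low genes. All 8 libraries entered 1 fit (eBayes, trend and robust options on), and the MIR394A_OE pair thus adds to the estimated spread. Tests were two-sided with Benjamini-Hochberg adjustment over all genes tested. Differences are bin2-1 minus Col-0 on that log2 scale, with standard errors (SE) or 95% intervals. Depth was estimated from 1646 genes as the value at which most low values came out whole within 0.1 read. The share at that best value was 85.3% to 90.0%. The 20.0% that chance gives holds for a depth fixed beforehand, so the 2 are not a test of the estimate.

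The 38 lists (773 members, 650 tested) and 9 marker lists were chosen with earlier results of these data known. Named genes are BIN2, all called genes, up to 10 uncalled genes each way with the largest difference, no overlap and at least 10 FPKM, and up to 3 members of each list without overlap. Other list members, and the PIF4, YUC5, clock and iron genes, were named after their values were seen. Alternatives covered pseudocount, filter, scaling, replicate block, libraries in the fit, eBayes settings, the threshold and each library left out. A fit of the 6 libraries after median of ratios scaling was added after seeing the data.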

Additional observations from a re-analysis of the deposited data

How the results depend on the processing

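The number of called genes depended on the fit. Of the 132 genes named by rule, 130 have groups that do not overlap, so leaving out a library cannot reverse them. BIN2, whose groups overlap, reversed to 0.0067 under quantile scaling, 0.034 without Col-0 replicate 3 and 0.0349 without bin2-1 replicate 1, in a range of -0.0998 to 0.0349 over single libraries left out. Against 21 calls, limma gave 3 with no filter on low values, 109 after median of ratios scaling (16 higher, 93 lower), 9 without trend and robust, 0 with the 6 libraries alone and 291 at a threshold of 0.10. With each library left out in turn the count ranged from 0 to 180. The 6 libraries alone after median of ratios scaling, chosen after seeing the data, gave 77 (12 higher, 65 lower), 20 of them among the 21. The causes were not tested. Pseudocounts of 0.1 and 0.5 gave 21, quantile scaling 24 and a minimum mean of 5 FPKM 27. A fit with the replicate number as a block gave 32 calls, 12 among the 21. Same-numbered libraries deviated together at r = 0.082, -0.205 and -0.112, so the numbers are not taken to pair the samples. Genes without overlap numbered 5391 in all and 4803 after median of ratios scaling. List medians near 0 changed sign with single libraries: dark and sugar starvation was at -0.43 without Col-0 replicate 1 and at 0.20 without bin2-1 replicate 1, and expansins at -0.05 without Col-0 replicate 1 and at 0.36 without bin2-1 replicate 3. Depth limits genes below about 0.31 FPKM, and 3 libraries a genotype limit single-gene calls.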
